A study of Mus musculus with 6 samples.

Results

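Type I interferon-stimulated genes were followed in the livers of SRC-2 null mice and of wild-type mice. The set was given by name: Irf7, Bst2, Ifit1, Ifit2, Ifit3, Isg15, Oasl2, Oas1a and Rsad2, 9 genes in all. Every array probe set annotated with exactly 1 of these symbols was taken. This gave 10 probe sets for 8 genes, out of 34945 probe sets with a single symbol and 18193 genes on the array. Rsad2 had 3 probe sets and each of the other 7 genes had 1. The probe set that lists Isg15 also lists a second gene, so no value is given for Isg15. Ifit2 lay below the filter on dim genes, which left 7 members among the 11894 genes tested.

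The SRC-2 null group comprised 3 liver samples from female mice with the SRC-2-/- genotype, and the wild-type group 3 liver samples from female mice, both on a C57 genetic background. Every animal was ovariectomized when 6 weeks old and was killed under Avertin anaesthesia 2 weeks after that, so both genotypes share the ovariectomy and the anaesthetic. SRC-2, the product of Ncoa2, is a transcriptional coactivator of nuclear receptors, and the comparison asks which liver transcripts differ without it. The labels describe neither the allele nor whether each array held RNA from 1 animal or from a pool, so the p-values reflect no more than the spread among these arrays, and that spread may be technical. Values are log2 expression values made by robust multi-array average (RMA), with array medians between 4.17 and 4.24, and precision is limited by the number of arrays. Ncoa2 was 5.63 ± 0.21 in SRC-2 null and 8.07 ± 0.41 in wild-type liver (SD, n = 3 each; limma adjusted p = 0.000353). None of 12 hepatocyte markers was called (limma; 1 had an unadjusted p under 0.05), and the least bright of them averaged 8.80 over the 6 arrays. Replicate 3 of both genotypes deviated together from the other arrays, with a correlation of deviations across genes of 0.516.

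Type I interferons are secreted when cells sense foreign or misplaced nucleic acid. They bind a receptor of the Ifnar1 and Ifnar2 chains, whose kinases Jak1 and Tyk2 activate a complex of STAT proteins and Irf9, called ISGF3. ISGF3 binds an interferon-stimulated response element (ISRE) in the promoters of its targets. In liver both hepatocytes and resident macrophages, the Kupffer cells, can respond. Among the genes followed here, Irf7 encodes a transcription factor that amplifies interferon production, Bst2 the membrane protein tetherin, which holds budding virus at the cell surface, and Oas1a and Oasl2 members of the oligoadenylate synthetase family. Ifit1, Ifit2 and Ifit3 encode proteins that bind viral RNA or each other, Isg15 a ubiquitin-like protein, and Rsad2 viperin, an antiviral enzyme that makes a chain-terminating nucleotide.

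The promoters are shown because ISGF3 acts through them and the members did not all move together. RefSeq promoter windows of GRCm38.p6, from 250 bases before to 50 after an annotated start, were found for all 9 genes, with 2 windows for Ifit2. The core of the ISRE was searched as GAAANNGAAA on both strands, overlapping matches included. It was present for 6 of the 9 genes, against 3.99% of 27025 genes in the same table (3.44% of 32851 windows). The 200 bases before the start follow, 5′ to 3′ on the strand of the gene, for the 3 genes that were lower in SRC-2 null liver and then for 3 that were not called. Capitals mark the matches to the core.
Irf7, chr7:141266425-141266624, minus strand: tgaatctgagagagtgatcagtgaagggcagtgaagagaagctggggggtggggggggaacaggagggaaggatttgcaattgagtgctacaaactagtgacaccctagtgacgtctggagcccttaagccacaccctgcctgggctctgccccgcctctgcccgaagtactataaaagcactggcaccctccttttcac
Bst2, chr8:71537473-71537672, minus strand: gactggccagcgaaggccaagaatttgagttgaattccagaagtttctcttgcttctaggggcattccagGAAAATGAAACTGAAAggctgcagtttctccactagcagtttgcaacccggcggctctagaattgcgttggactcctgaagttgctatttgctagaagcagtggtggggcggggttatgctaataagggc
Oas1a, chr5:120907526-120907725, minus strand: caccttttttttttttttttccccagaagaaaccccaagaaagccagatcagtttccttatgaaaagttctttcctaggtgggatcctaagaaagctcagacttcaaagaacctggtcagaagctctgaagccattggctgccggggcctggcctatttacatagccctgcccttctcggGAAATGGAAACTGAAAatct
Ifit1, chr19:34640689-34640888, plus strand: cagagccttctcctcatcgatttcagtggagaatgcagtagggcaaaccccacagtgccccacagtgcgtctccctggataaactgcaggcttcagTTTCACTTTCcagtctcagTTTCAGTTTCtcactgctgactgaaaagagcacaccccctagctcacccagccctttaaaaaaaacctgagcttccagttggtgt
Ifit3, chr19:34583329-34583528, plus strand: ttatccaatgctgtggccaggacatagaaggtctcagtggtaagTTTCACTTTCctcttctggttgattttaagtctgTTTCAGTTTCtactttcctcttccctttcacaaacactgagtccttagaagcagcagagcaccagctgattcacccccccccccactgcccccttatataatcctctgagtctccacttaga
Rsad2, chr12:26456453-26456652, minus strand: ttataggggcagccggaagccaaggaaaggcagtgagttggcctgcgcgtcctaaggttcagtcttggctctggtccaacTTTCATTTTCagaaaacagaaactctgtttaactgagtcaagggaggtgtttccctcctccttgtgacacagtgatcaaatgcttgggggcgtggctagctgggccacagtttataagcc

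Bst2 and Oas1a each held 2 overlapping matches, those of Oas1a running from position -20 to position -5, counted back from the listed start. Ifit1 and Ifit3 each held 2 separate matches, and Rsad2 held 1. The windows of Irf7, Oasl2 and Ifit2 held none, which says only that these letters are not in these windows. Isg15, which has no value here, held 3 overlapping matches from position -78 to position -57. A second motif, the core of the STAT-binding gamma-activated site (GAS), was searched as TTCNNNGAA on both strands and may overlap an ISRE core. It was present for 3 of the 9 genes (Bst2, Ifit2 and Oas1a), against 9.55% of all genes in the table. Both the genes that were lower and the genes that were not called thus include promoters with an ISRE core, and Irf7, which was lower, is among those without. Ifit2, Ifit3 and Ifit1 lie in 1 cluster on chromosome 19 with Ifit1bl1, Ifit3b and Ifit1bl2 between them. Oas1a lies beside Oas1g on chromosome 5.

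In SRC-2 null liver 3 of the 7 tested members were lower, Bst2, Irf7 and Oas1a, and the other 4 did not pass the test. In the same fit, 4.67% of all tested genes were called, 3.13% lower and 1.55% higher. The groups did not overlap for these 3 genes, lower in SRC-2 null, and for Ifit1, higher in SRC-2 null, while 12.5% of all tested genes had groups that did not overlap with SRC-2 null lower and 10.8% with SRC-2 null higher. The median log2 fold change over the 7 tested members was -0.49, beside a median of 0.0026 over all genes tested, and the members ranged from -0.71 to 0.41. No member was called higher.

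Bst2 read 8.27, 8.33 and 8.29 on the SRC-2 null arrays, against 9.04, 9.02 and 8.96 on the wild-type arrays. Every SRC-2 null value lay below every wild-type value, and the arrays of each genotype lay close together. The means were 8.29 ± 0.03 in SRC-2 null and 9.01 ± 0.04 in wild-type liver (SD, n = 3 each). The transcript fell 1.64-fold in SRC-2 null liver (log2 fold change -0.71, SE 0.08; adjusted p = 0.00132 in limma). Without any 1 array the log2 fold change stayed between -0.74 and -0.70, and it was -0.67 between the replicate 3 arrays alone, which have no test.

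Irf7 read 6.32, 6.36 and 6.42 in SRC-2 null liver, against 6.97, 6.94 and 7.05 in wild-type liver. Again the groups did not overlap, and the gap between them was wider than the range within either. The means were 6.37 ± 0.05 in SRC-2 null and 6.98 ± 0.06 in wild-type liver (SD, n = 3 each), a 1.54-fold fall (log2 fold change -0.62, SE 0.08; adjusted p = 0.00347 in limma). Its probe set can detect several transcripts of the gene. Irf7 and Bst2 kept their calls in all 15 alternative settings tried for each.

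Oas1a, which encodes a synthetase of the oligoadenylates that activate RNase L, read 5.55, 5.59 and 5.53 in SRC-2 null liver, against 5.87, 6.22 and 6.04 in wild-type liver. The groups did not overlap, but the wild-type arrays were spread more widely than the SRC-2 null arrays (SD 0.03 in SRC-2 null and 0.18 in wild-type liver). It fell 1.41-fold (log2 fold change -0.49, SE 0.10; adjusted p = 0.0341 in limma). The call was lost without any array but wild-type replicate 1, with adjusted p between 0.0765 and 0.128 in limma, while the log2 fold change stayed between -0.58 and -0.40. It was also lost in the fit of each probe set on its own (adjusted p = 0.0692 in limma), which called 2.41% of 19623 probe sets, 1.79% lower. Oas1 genes resemble each other closely, so the probe set may detect more than Oas1a.

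Oasl2, an oligoadenylate synthetase-like gene, read 4.50, 4.78 and 4.22 in SRC-2 null liver, against 4.70, 5.10 and 5.55 in wild-type liver. The groups overlapped, and replicate 3 was the lowest of the SRC-2 null and the highest of the wild-type arrays. The log2 fold change was -0.61 (SE 0.22, 95% interval -1.11 to -0.11) and did not pass the test (limma adjusted p = 0.197). It was -1.32 between the replicate 3 arrays alone and -0.26 over replicates 1 and 2. Its size was thus close to that of Irf7, with a standard error that was larger.

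**Figure D1:**
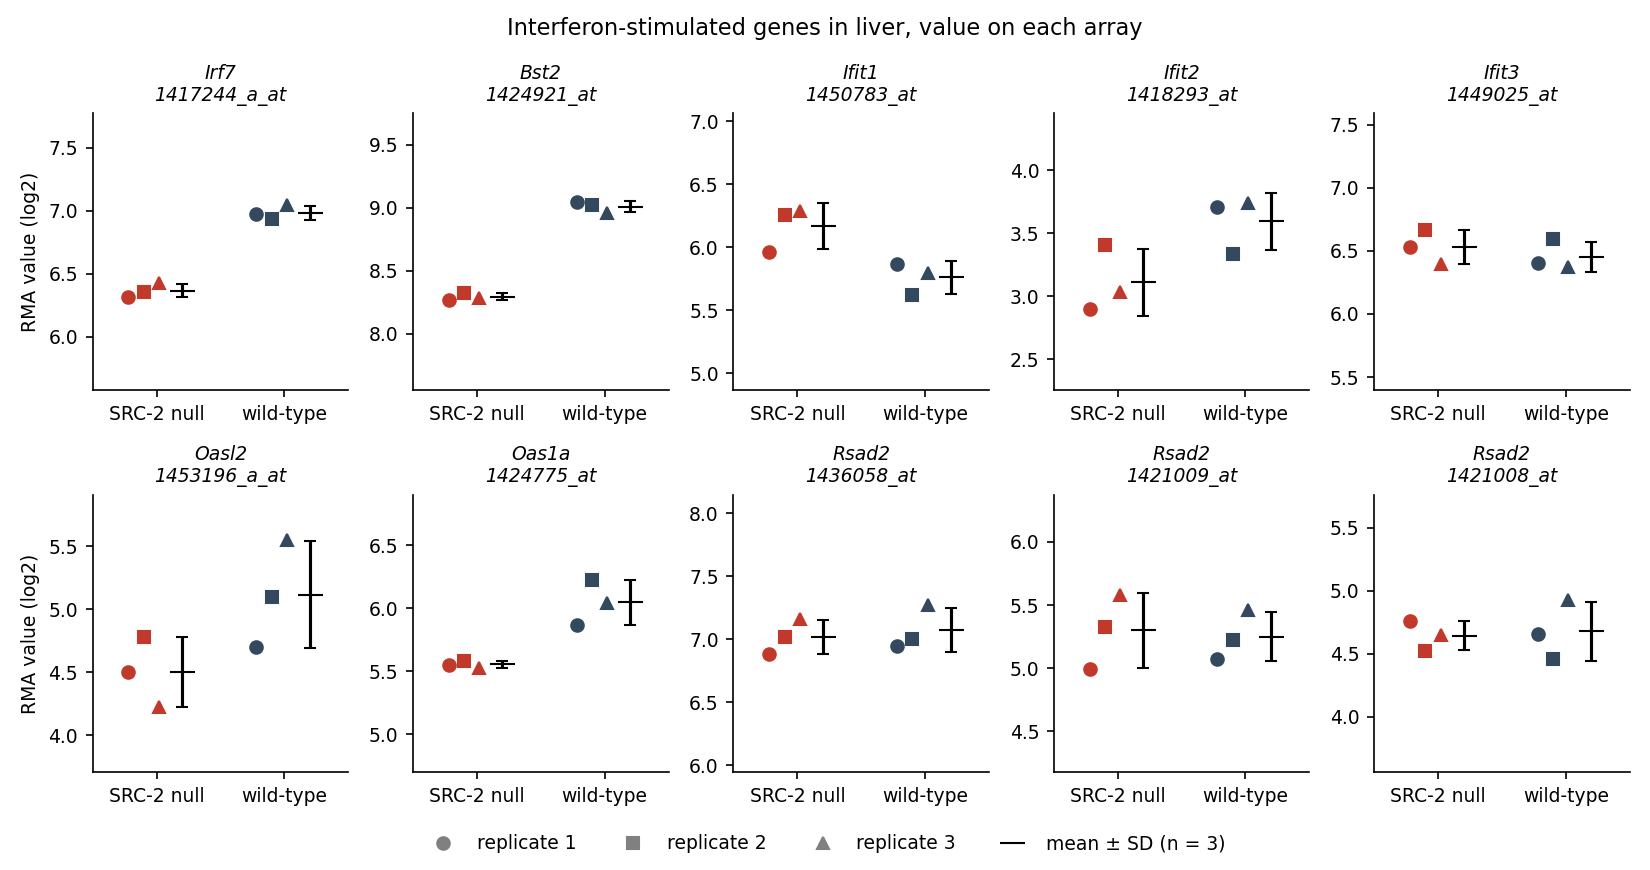
RMA values (log2) of the 10 probe sets in SRC-2 null (red, left) and wild-type liver (blue, right), 1 symbol per array, with the mean and SD of 3 arrays in black; every panel spans the same number of log2 units. Bst2, Irf7 and Oas1a were lower on every SRC-2 null array than on any wild-type array, Ifit1 was higher, and the other panels overlap.

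None of the 3 Ifit genes was called. Ifit1, whose protein binds viral RNA caps, read 5.96, 6.26 and 6.29 in SRC-2 null liver, against 5.87, 5.62 and 5.79 in wild-type liver. All SRC-2 null values were above all wild-type values, by a narrow margin between SRC-2 null replicate 1 and wild-type replicate 1. The means were 6.17 ± 0.18 in SRC-2 null and 5.76 ± 0.13 in wild-type liver (SD, n = 3 each), a log2 difference of 0.41 (SE 0.12, 95% interval 0.14 to 0.67). It did not pass the test (limma adjusted p = 0.104, and 0.065 to 0.334 over the alternatives), and it was above 0 in all 14 alternatives that tested it.

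Ifit3, another member of the family, read 6.53, 6.67 and 6.40 in SRC-2 null liver, against 6.40, 6.59 and 6.37 in wild-type liver. The groups overlapped almost completely. The log2 fold change was 0.08 (SE 0.10, 95% interval -0.16 to 0.32, limma adjusted p = 0.776). Ifit3 has a near-identical neighbour, Ifit3b, which its probe set may also detect.

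Ifit2, an RNA-binding member of the family, read 2.90, 3.41 and 3.03 in SRC-2 null liver, against 3.71, 3.33 and 3.74 in wild-type liver. The groups overlapped, with SRC-2 null replicate 2 above wild-type replicate 2. All values lay below 4.21, the median of all probe sets, where RMA values hold mostly background and folds are compressed. With no filter on dim genes its log2 fold change was -0.48 (limma adjusted p = 0.204).

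Rsad2 was read by 3 probe sets, which all put the genotypes close together. The brightest read 6.88, 7.02 and 7.16 in SRC-2 null liver, against 6.95, 6.998 and 7.27 in wild-type liver. Replicate 3 was the highest array of both genotypes, and the groups overlapped. The log2 fold change was -0.05 (SE 0.12, 95% interval -0.32 to 0.21, limma adjusted p = 0.877). It changed sign without SRC-2 null replicate 1 (0.015) and without wild-type replicate 3 (0.047). The other 2 Rsad2 probe sets had log2 differences of 0.05 and -0.03 (limma adjusted p = 0.944 and 0.951 in the fit of each probe set on its own).

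**Figure D2:**
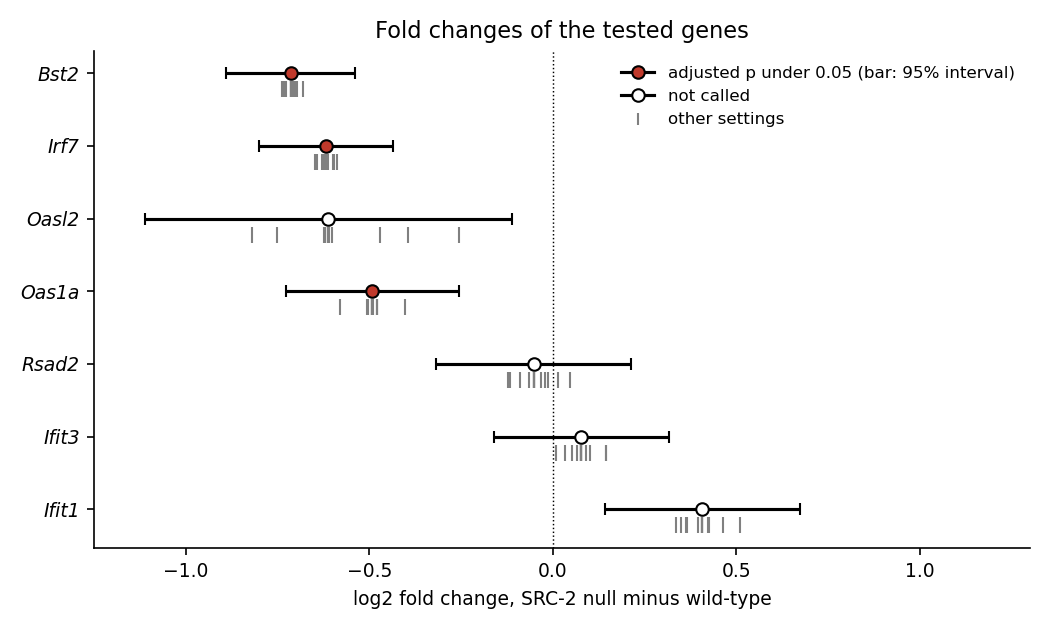
Log2 fold change (SRC-2 null minus wild-type) of the 7 tested members, with the 95% interval of the limma fit as a bar and the values under the other settings as grey ticks. Filled points passed the test: Bst2 (-0.71), Irf7 (-0.62) and Oas1a (-0.49); Oasl2 had an interval of -1.11 to -0.11 and was not called.

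An exact two-sided permutation test of each gene, 3 arrays against 3, cannot go below 0.1. It gave that value for Irf7, Bst2, Oas1a and Ifit1, 0.2 for Ifit2 and Oasl2, 0.6 for Ifit3 and 0.7 for the brightest Rsad2 probe set.

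**Figure D3:**
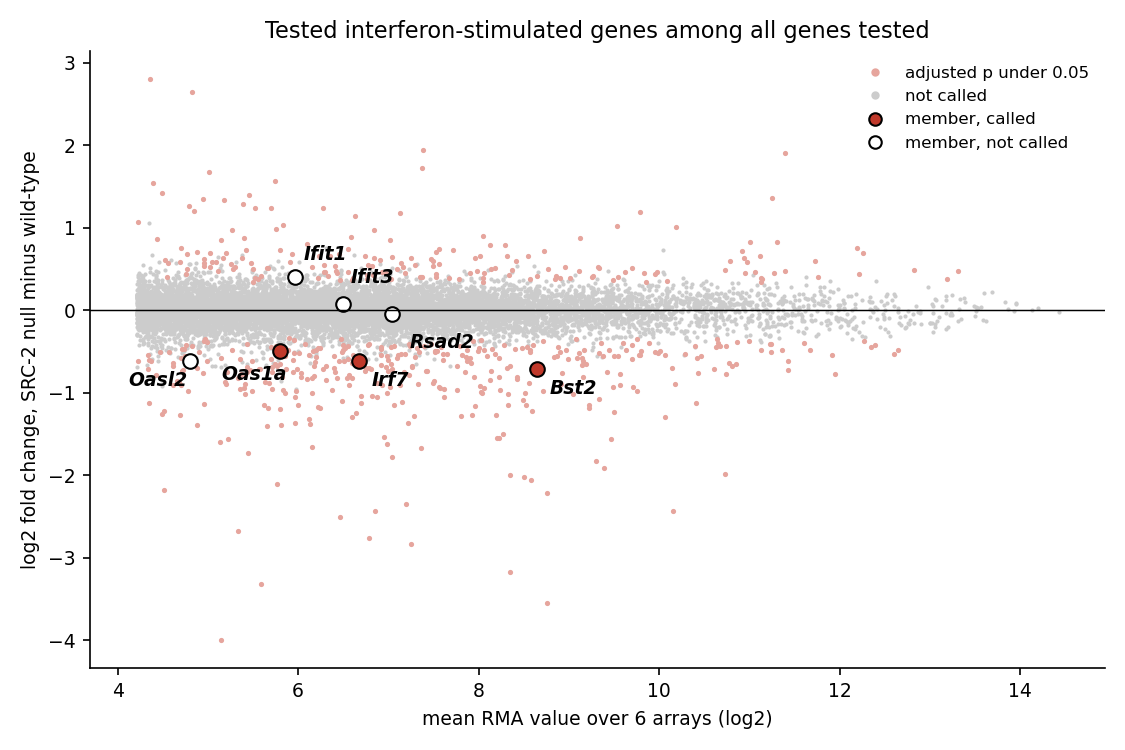
Log2 fold change (SRC-2 null minus wild-type) against the mean RMA value over 6 arrays (log2) for the 11894 genes tested, with the 7 tested members as large labelled points. Bst2 (-0.71), Irf7 (-0.62) and Oas1a (-0.49) lie at the lower edge of the grey cloud of genes that were not called, and Ifit3 (0.08) and Rsad2 (-0.05) within it.

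The genes whose profile over the 6 arrays was closest to that of Irf7 were not members. Likeness was measured as the root mean square difference between log2 values centred on each gene's own mean. The 4 closest were Mvd, an enzyme of sterol synthesis (0.0347), Apcs, which encodes serum amyloid P (0.0401), Gadd45a, a stress-induced growth arrest gene (0.0412), and Saa4, a serum amyloid A gene (0.0481). All 4 were lower in SRC-2 null liver, with log2 fold changes of -0.55, -0.64, -0.58 and -0.68 in the order named. Of the members, Bst2 was the 43rd closest to Irf7 of 11893 genes (0.0799) and Oas1a the 229th (0.139). Oasl2 and Rsad2 stood at 0.290 and 0.296, Ifit3 at 0.375 and Ifit1 at 0.523. These are descriptions over 6 arrays in 2 genotypes, so the size of the genotype difference sets most of the likeness.

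**Figure D4:**
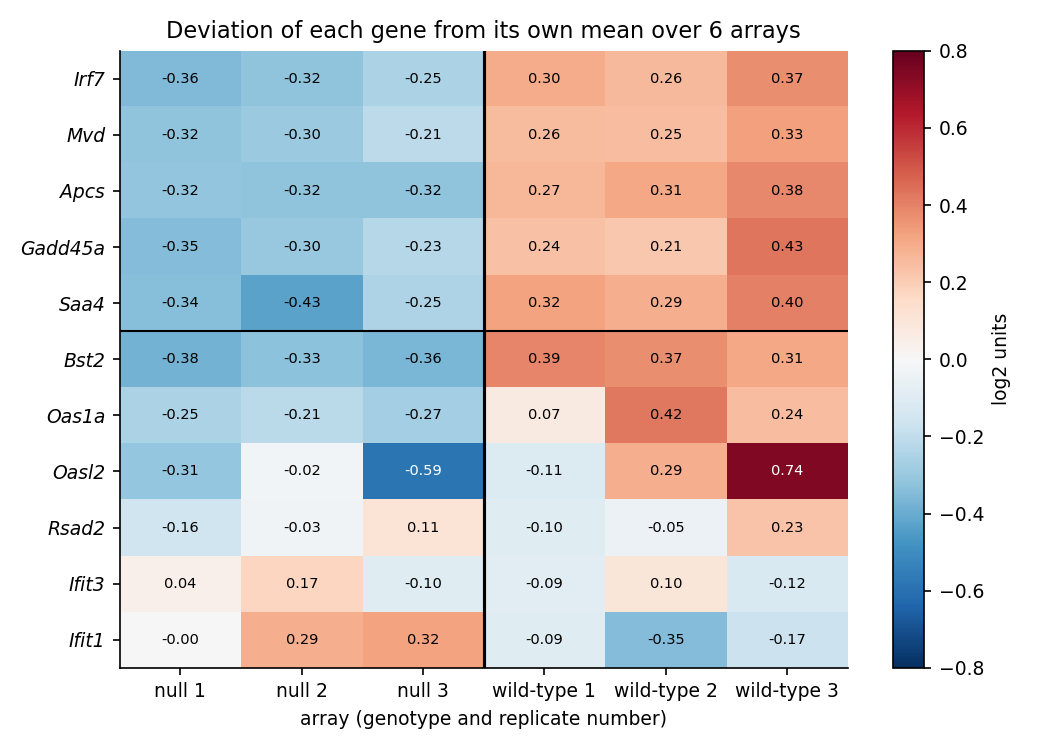
Deviation (log2 units) of each gene from its own mean over the 6 arrays, with the SRC-2 null arrays left of the line and the wild-type arrays right of it. Irf7 and the 4 genes closest to it stand above the horizontal line and the other tested members below it; Bst2 and Oas1a share the pattern of Irf7, and Ifit1 runs the other way.

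The pathway upstream of these genes was measured at several steps, and none of its lists held a called gene in limma. Of 14 listed interferon ligand genes Ifna1, Ifna2 and Ifnz were tested. Their log2 fold changes were 0.19, 0.16 and 0.13, and none had an unadjusted p under 0.05 in limma. Ifnb1, the gene of interferon beta, lay below the filter.

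Of the 7 genes of the receptor, its kinases and ISGF3, 6 were tested. None was called and none had an unadjusted p under 0.05 in limma. The receptor genes Ifnar1 and Ifnar2 had log2 fold changes of -0.17 (SE 0.09) and 0.06 (SE 0.09), and the kinase genes Jak1 and Tyk2 0.12 (SE 0.16) and -0.12 (SE 0.10). Irf9, the DNA-binding subunit of ISGF3, averaged 6.56 ± 0.14 in SRC-2 null and 6.71 ± 0.07 in wild-type liver (SD, n = 3 each; limma adjusted p = 0.520). Stat2, which binds Irf9, read 6.26, 6.43 and 5.72 in SRC-2 null liver, against 6.24, 6.35 and 5.78 in wild-type liver, with the replicate 3 arrays lowest in both genotypes.

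Among 19 sensors, adaptors and kinases of interferon induction, none was called, and 3 had an unadjusted p under 0.05 in limma, all lower in SRC-2 null. These were Tlr7, a receptor for single-stranded RNA (log2 fold change -0.35, limma adjusted p = 0.0883), Sting1, the adaptor of DNA sensing (-0.26, adjusted p = 0.250), and Irf8, a transcription factor of myeloid cells (-0.43, adjusted p = 0.287). Zbp1, a nucleic acid sensor, had -0.37 (limma adjusted p = 0.314). The list median was -0.0091. With a block for the replicate 3 arrays Tlr7 passed (limma adjusted p = 0.0495).

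Of 11 negative regulators of interferon signalling none was called, and 2 had an unadjusted p under 0.05 in limma. They were Nlrc5, which is also an activator of class I antigen presentation genes (-0.37, limma adjusted p = 0.145), and Trim24, a nuclear cofactor (-0.29, limma adjusted p = 0.160). With the replicate number as a block Nlrc5 passed (limma adjusted p = 0.0388). Socs3, an inhibitor of JAK kinases, and the phosphatase gene Ptpn11 had log2 fold changes of -0.19 and -0.09. The list median was -0.015.

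Beyond the members, 6 of 44 other tested interferon-stimulated genes were lower and none was higher (limma; at an unadjusted p under 0.05, 11 were lower, these 6 included, and 1 was higher, Oasl1 with a log2 fold change of 0.33). Their median log2 fold change was -0.09. Ifi27l2a read 5.44, 5.53 and 5.55 in SRC-2 null liver, against 6.02, 6.15 and 6.50 in wild-type liver, a 1.64-fold fall with no overlap (limma adjusted p = 0.0165). Epsti1, an interferon-induced gene, fell 1.65-fold and Phf11d 1.43-fold. Epsti1 averaged 4.37 in SRC-2 null liver, close to the 4.21 limit for dim genes, and 5.09 in wild-type liver, so the size of its fold is uncertain. Slfn2, a Schlafen family gene of leukocytes, fell 1.27-fold. The remaining pair, Gbp2b (2.41-fold) and Ifi47 (1.41-fold), encode GTPases of the families induced by interferon gamma. Gbp2b averaged 4.06 in SRC-2 null liver, below the 4.21 limit for dim genes, and 5.33 in wild-type liver. Its SRC-2 null mean is thus mostly background, so the size of its fold is uncertain. The count of 6 was 1, 0, 3 and 3 without SRC-2 null replicate 1, SRC-2 null replicate 2, wild-type replicate 1 and wild-type replicate 2, and 1 in replicates 1 and 2 only.

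The GTPases of the interferon-gamma response, which attack the vacuoles of intracellular pathogens, were set beside the 9 genes because their families are also induced by interferon. Of 8 tested, 7 were lower and Irgm1 was not called (log2 fold change -0.23, limma adjusted p = 0.197). The median log2 fold change was -0.76, beside -0.49 over the 7 type I interferon-stimulated genes tested. Igtp read 8.08, 7.85 and 7.91 in SRC-2 null liver, against 9.17, 9.08 and 9.05 in wild-type liver (2.22-fold). Gbp7, Irgm2 and Gbp2 fell 1.72-fold, 1.67-fold and 2.21-fold. The count of 7 was 4 without SRC-2 null replicate 2 or without wild-type replicate 2. Whether the sets differ was not tested, and both are read against the same wild-type livers. The promoter search covered the listed GTPase genes, tested or not. All 9 with a promoter window held an ISRE core, against 6 of the 9 genes followed here. A GAS core was present for 6 of those 9 GTPase genes, against 3 of the 9 genes followed here.

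**Figure D5:**
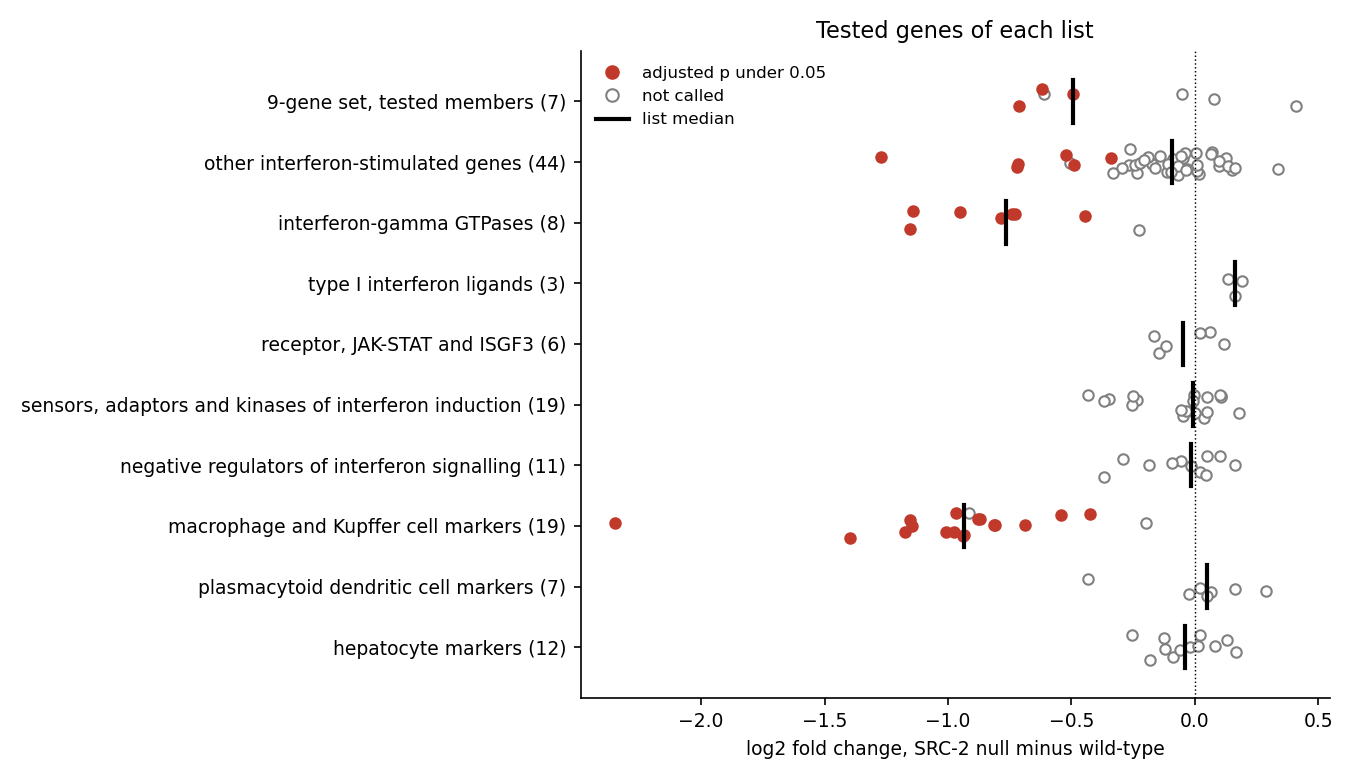
Log2 fold change (SRC-2 null minus wild-type) of each tested gene, by list, with the number tested in brackets, called genes filled and list medians as black bars. The 9-gene set spreads from -0.71 to 0.41, the interferon-gamma GTPases have a median of -0.76 and the macrophage markers one of -0.94, while the lists upstream of the response centre near 0.

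Markers of macrophages and Kupffer cells, and some of T and NK cells, were lower in the same contrast as Bst2, Irf7 and Oas1a. Of 19 tested macrophage and Kupffer cell markers, 17 were lower, with a median log2 fold change of -0.94, and all 19 lay below 0. The least bright, Fcgr1, was not called and averaged 4.50 over the 6 arrays, 4.04 in SRC-2 null and 4.95 in wild-type liver. Timd4, which was called, averaged 4.18 in SRC-2 null and 5.58 in wild-type liver. Both SRC-2 null means lie below the 4.21 limit for dim genes, so the size of these 2 folds is uncertain. Both genes passed the filter through their wild-type arrays. Their summed level, on the linear scale, was 3627 to 3828 in SRC-2 null and 6959 to 7351 in wild-type liver. Of 8 tested T and NK cell markers, 2 were lower, the chemokine gene Ccl5 (2.07-fold) and the cytotoxic granule gene Nkg7 (1.72-fold), and 5 had an unadjusted p under 0.05 in limma, all lower. Among these 5, Nkg7, Cd3d and Gzmb averaged 4.04, 4.09 and 4.19 in SRC-2 null liver, below the 4.21 limit for dim genes. In wild-type liver Nkg7, Cd3d and Gzmb averaged 4.82, 4.49 and 4.45, and they passed the filter through those arrays. The SRC-2 null means of Nkg7, Cd3d and Gzmb are thus mostly background, so the size of their folds is uncertain. The list median was -0.33. Summed over the 10 with a probe set, the level was 249.4 to 289.1 in SRC-2 null and 336 to 357 in wild-type liver. The part of these marker shifts in the fall of the 3 members was not tested. In whole liver, fewer cells of a type and less RNA per cell cannot be told apart. None of 6 tested neutrophil markers was called (median log2 fold change 0.05), nor any of 8 stellate cell markers (-0.08). Of 10 endothelial markers none was lower and 1, Flt1, was higher (1.36-fold, limma adjusted p = 0.0431). The endothelial median was -0.0036.

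Bst2 is also a marker of plasmacytoid dendritic cells and plasma cells in mice. Of 7 tested markers of plasmacytoid dendritic cells none was called (limma; 1 lower and 1 higher at an unadjusted p under 0.05), with a median of 0.05. Summed over the 9 with a probe set, the level was 371 to 400.2 in SRC-2 null and 378 to 410.2 in wild-type liver. Siglech, a receptor largely confined to these cells, averaged 4.30 in SRC-2 null and 4.13 in wild-type liver, which is at the 4.21 limit for dim genes, so its values are mostly background and do not show whether it differed. Of 6 B and plasma cell markers 3 were lower, Ighm (11.7-fold), Jchain (5.69-fold) and Mzb1 (2.59-fold), and the median was -0.996. Xbp1, a transcription factor of plasma cells that hepatocytes also express, ran the other way without passing the test, at 11.04 in SRC-2 null and 10.71 in wild-type liver with no overlap (log2 fold change 0.33, limma adjusted p = 0.0566). The summed level of the 7 markers with a probe set was 2352 to 2379 in SRC-2 null and 3397 to 3889 in wild-type liver, of which Xbp1 alone was 2096 to 2116 in SRC-2 null and 1608 to 1760 in wild-type liver. Without Xbp1, a sum added after its values were seen, the level was 236 to 284 in SRC-2 null and 1733 to 2129 in wild-type liver. The part of these markers in the fall of Bst2 was not tested.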

How the data were processed

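RNA from 3 SRC-2 null and 3 wild-type livers was labelled with biotin and hybridised to short oligonucleotide arrays, per the labels. The deposited log2 values, 45101 probe sets per array, were made by the authors with RMA, per the submitters' processing notes. No source used here gives its version, chip description or genome build. Genes were named from the platform annotation: 34945 probe sets had 1 symbol, 932 several and 9160 none, and 64 were controls.

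For each gene the probe set with the highest mean was kept, and genes averaging 4.21 (the probe set median) or more were tested with limma 3.58.1 in R 4.3.3 (lmFit, eBayes, two-sided, Benjamini-Hochberg over all genes tested, called under 0.05). Each probe set was also tested on its own. Replicate numbers come from the sample titles. Deviations from the genotype mean correlated at 0.18, 0.203 and 0.516 for replicates 1, 2 and 3, so the replicate block was run as an alternative. No arrays held identical values. The procedure was tested on simulated data. Promoter sequences are those of RefSeq, GRCm38.p6. Plots were made in Python 3.11.15 with matplotlib 3.10.9.

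Named were the members, Ncoa2, the receptor and ISGF3 genes, up to 4 genes with the smallest p in each list and all called ones where 5 or fewer, and the 4 genes closest to Irf7. Slfn2, Phf11d, Ifnb1, Irgm1, Oasl1, Fcgr1 and Gzmb were named after their values were seen. The members and lists were chosen with earlier results of these data known.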

Additional observations from a re-analysis of the deposited data

How the results depend on the processing

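The count of called members was 3 and stayed at 2 or 3 in all alternatives, and at 2 to 3 without each array in turn. Irf7 and Bst2 kept their calls throughout. Oas1a lost its call over replicates 1 and 2 (limma adjusted p = 0.147) and without 5 of the 6 arrays. The median over the tested members was -0.34 with a filter at a mean of 6, which removes Ifit1, Oasl2 and Oas1a, -0.26 over replicates 1 and 2, and -0.58 to -0.40 without each array. Rsad2 ranged from -0.12 to 0.047 without each array and changed sign without SRC-2 null replicate 1 (0.015) and without wild-type replicate 3 (0.047). Over all genes, 556 were called (184 higher, 372 lower in SRC-2 null), 982 with a block for replicate 3 (375 and 607), 329 over replicates 1 and 2 (95 and 234), and 275 to 438 without each array (65 to 174 and 210 to 315). The replicate block gave 307 higher, and each probe set on its own 107 higher. The replicate block changed the call of no member, and of the pathway genes named only that of Nlrc5 (adjusted p = 0.0388, limma). The other pathway genes called numbered 13, but 6 with the stricter filter, 6 over replicates 1 and 2, and 4 to 10 without each array. With 3 arrays a group, differences as small as those of Ifit3 and Rsad2 cannot be resolved, and Ifit2 was too dim to test.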
